A study of Mus musculus with 28 samples.

Results

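Spen, the RNA-binding repressor targeted in the Spen KO cells of this study, was examined together with its paralogs Rbm15 and Rbm15b and with 4 genes of the NCoR and HDAC3 corepressor complex, Ncor1, Hdac3, Tbl1xr1 and Gps2. These 7 genes were chosen by name out of 22241 protein-coding genes of the mm9 annotation, and each was examined over its gene body plus 10 kb on each side. All 7 were found in the annotation, Rbm15b as 2 adjoining records that were joined. The cells were HATX mouse embryonic stem cells, a haploid line with a doxycycline-inducible Xist transgene, grown in serum and LIF, either WT or Spen KO clone 2, so that the KO genotype is a single clone. ChIP-seq libraries for H3K4me3, H3K27Ac, H3K9me3 and Oct4 (2 libraries per genotype for each, 16 in all) and 12 input libraries give 28 samples. The deposited peak lists number 10: 6 for the histone marks, 1 for each mark and genotype, and 4 for Oct4, 1 for each library.

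Spen carries RNA recognition motifs and a SPOC domain. During X inactivation it is recruited by the A-repeat of Xist RNA, and its SPOC domain binds NCoR corepressor complexes, which activate the histone deacetylase HDAC3. Rbm15 and Rbm15b share the domain layout of Spen and act as RNA-binding adaptors of the m6A methyltransferase complex. Ncor1 is the scaffold of the corepressor complex, Hdac3 its deacetylase, Tbl1xr1 a WD40 protein that binds histones and drives cofactor exchange, and Gps2 a small subunit. H3K4me3 marks active start sites, H3K27Ac marks active promoters and enhancers, and H3K9me3 marks silent chromatin.

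As a check of cell identity, 4 of 5 pluripotency genes (all but Esrrb) had an H3K4me3 and an H3K27Ac peak within 1000 bp of the annotated start site in both genotypes, and of Myod1, Alb and Gata1 only Myod1 had an H3K4me3 peak and none had an H3K27Ac peak. The lists differed in length. WT had 34823 H3K4me3 peaks over 64.5 Mb and Spen KO 31091 over 50.3 Mb, and for H3K27Ac WT had 13922 peaks over 22.4 Mb and Spen KO 11932 over 17.8 Mb. Of the Oct4 libraries, WT replicate 1 stood apart: 68.9% of its 1806 peaks lay within 1000 bp of a start site, against 17.0% to 22.6% in the other 3. No read counts accompany the lists, so the depth behind a peak is unknown.

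The targeted gene was inspected first. The study describes the KO in one place as a full deletion and in another as lacking most of the Spen gene. Both marks had peaks inside the gene (chr4:141023805-141094512, mm9, minus strand) in the libraries labelled Spen KO. H3K4me3 peaks of these libraries lay between 0.056 and 21.4 kb and between 59.6 and 66.1 kb downstream of the start site. They left gaps, the longest from 16.5 to 19.6 kb. The bases under the peaks were read in both KO libraries. Between 25 and 58 kb neither genotype had a peak of either mark, and the lists hold no reading of that stretch. The lists do not show which bases were removed. Every direction below is that of the libraries labelled Spen KO against the WT libraries.

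H3K4me3 covered more of Spen in Spen KO. Over the gene body plus 10 kb, 15.3 kb lay in H3K4me3 peaks in WT and 30.7 kb in Spen KO. The log2 ratio, taken after adding 500 bp to both values as in all ratios here, was 0.98, just short of the 2-fold limit at which a ratio was called. Over the gene body without flanks the ratio was 1.37 and passed it. Of the 30.7 kb, 13.5 kb were also covered in WT and 17.2 kb were covered only in Spen KO, while 1.87 kb were covered only in WT. Since both libraries of a genotype share 1 H3K4me3 list, these coverage values have no replicate error and no test. With lists of equal length by score the ratio of Spen was 1.05. In bulk chromatin, a peak in more cells and a stronger mark per cell cannot be told apart.

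The added bases lay mostly in the 5' part of the gene. From the start site to 25 kb into the gene, peaks covered 4.75 kb in WT and 17.7 kb in Spen KO. This difference of 12.9 kb was the first in order among the 6947 genes of at least 25 kb that had a peak in this stretch, a window chosen after seeing the data. Of these genes 0.907% passed 2-fold higher. In WT a 3910-bp peak began 0.041 kb after the start site and an 840-bp peak followed at 4.22 kb. In Spen KO a single peak of 9011 bp began at 0.056 kb. It was followed by peaks of 4939 bp at 9.15 kb, 1924 bp at 14.6 kb and 1795 bp at 19.6 kb, none of which overlapped a WT peak.

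The 9011-bp peak was the 49th widest of the 31091 in the Spen KO list, where the WT peak at the same place was the 2787th widest of 34823. Peaks of 5 kb or more were fewer in Spen KO (510, or 1.64% of the list) than in WT (1129, or 3.24%). Spen had 2 of them in Spen KO and none in WT. By score, the 9011-bp peak stood at the 89.4th percentile of its list and the WT peak at the 68.0th. The 3 peaks found downstream of it in Spen KO alone were weaker, between the 23.8th and 44.0th percentiles. In the 10 kb before the start site, peaks stood lower in Spen KO. The strongest WT peak of the Spen window, 2851 bp wide, lay there at the 86.4th percentile. Spen KO had peaks of 1257 and 1139 bp at its place, at the 58.9th and 67.5th percentiles. The peak just before the start site was at the 47.3rd percentile in WT and the 28.4th in Spen KO. H3K4me3 covered 3.87 kb of this stretch in WT and 3.39 kb in Spen KO.

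The far end of the gene was marked in both genotypes. The longest exon of Spen runs from 59.2 to 67.2 kb and is coding. WT had H3K4me3 peaks of 1620 and 2602 bp over it, and Spen KO had peaks of 672 and 5687 bp. From 58 to 71 kb the covered length was 4.22 kb in WT and 6.36 kb in Spen KO, a smaller difference than in the first 25 kb.

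**Figure D1:**
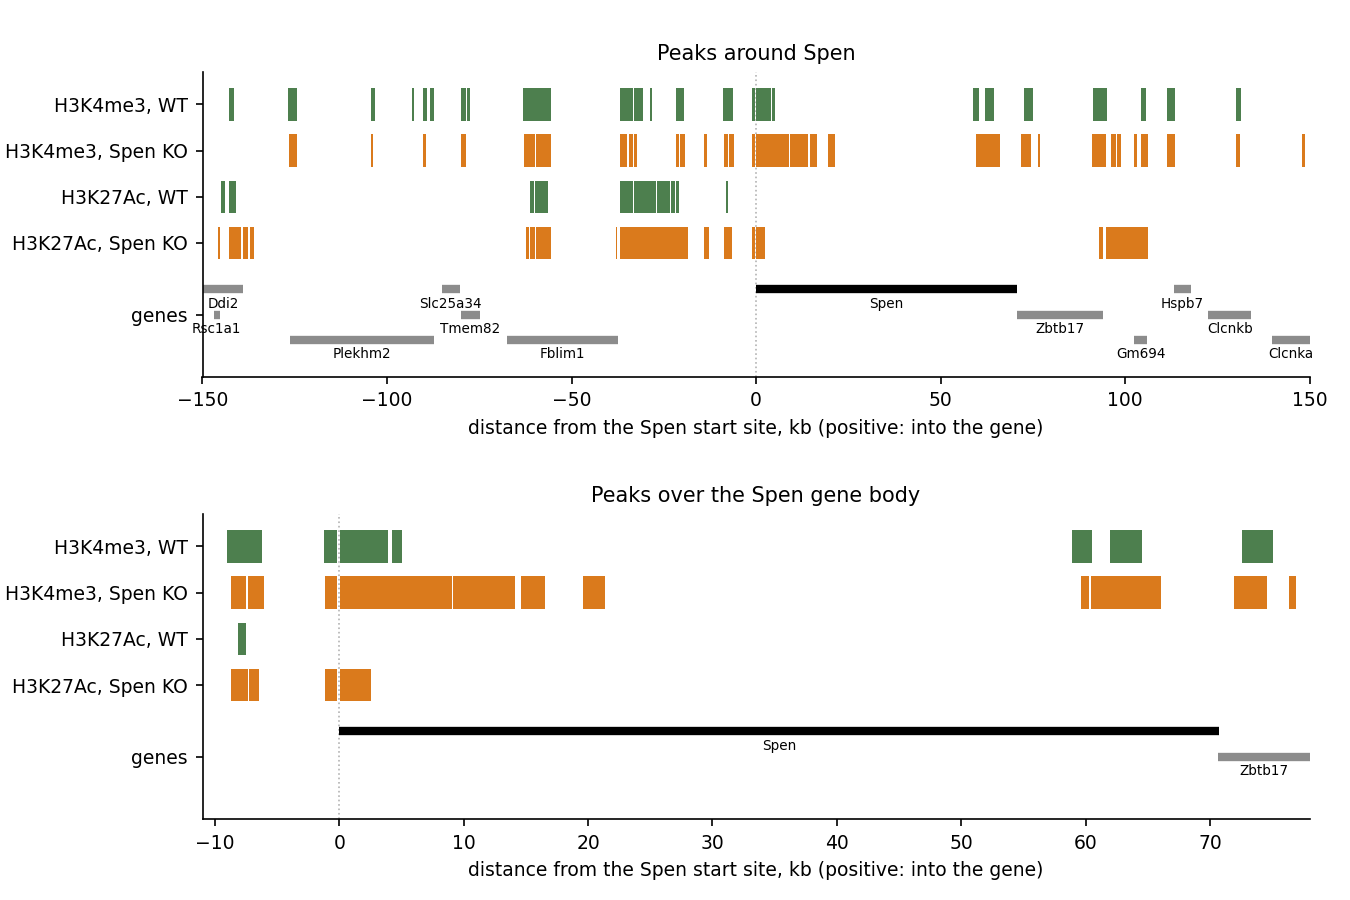
Peaks of H3K4me3 and H3K27Ac in WT (green) and Spen KO (orange) by distance in kb from the Spen start site, over 150 kb on each side (top) and over the gene body (bottom), with genes as bars below. In Spen KO, H3K4me3 covered 17.7 kb of the first 25 kb of Spen against 4.75 kb in WT, and H3K27Ac appeared at the start site and from 93.0 to 106 kb.

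The start site itself lay in a short gap between H3K4me3 peaks. The gap measured 237 bp in the WT list and 227 bp in the KO list, and it held the start site in both. The promoter window below, from 250 bases before the start site to the 50th base from it on, is shown because it holds almost the whole gap; it is mm9 sequence at chr4:141094463-141094762, minus strand, and capitals mark matches to the searched motifs.
Spen: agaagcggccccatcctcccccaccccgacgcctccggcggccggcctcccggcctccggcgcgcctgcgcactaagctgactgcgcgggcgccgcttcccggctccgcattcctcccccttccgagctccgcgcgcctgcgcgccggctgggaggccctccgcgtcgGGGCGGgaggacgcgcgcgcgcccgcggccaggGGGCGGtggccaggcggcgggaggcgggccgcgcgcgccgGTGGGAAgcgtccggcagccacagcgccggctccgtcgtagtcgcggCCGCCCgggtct
The motifs searched on both strands were the octamer ATGCAAAT bound by Oct4, the RBPJ core GTGGGAA, the GC box GGGCGG, the ETS site CCGGAAG and the YY1 site AAGATGGCG. The Spen window held 1 RBPJ core, from 9 to 3 bases before the start site, a motif found in 5.89% of 22236 promoter windows. It also held 3 GC boxes, a motif found in 43.5% of windows. With 81.7% G and C and 54 CpG dinucleotides it stood at the 99.3rd and 99.6th percentiles of all windows, whose medians were 55.3% and 11.

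H3K27Ac was also wider at Spen in Spen KO. WT had 1 peak in the window, of 633 bp and 7.50 kb before the start site, and none in the gene. Spen KO had 4 peaks that covered 5.67 kb, a log2 ratio of 2.44. Of 8262 genes with an H3K27Ac peak in either genotype, 12.4% passed 2-fold higher in Spen KO and 21.7% passed 2-fold lower, and Spen stood 84th from the top. Its strongest H3K27Ac peak, 2505 bp from 0.048 to 2.55 kb after the start site, was at the 98.6th percentile of the Spen KO list. With a second peak of 973 bp just before the start site it framed a gap of 260 bp, at the same place as the gap in H3K4me3. A promoter peak in Spen KO alone was found in 18.6% of the 4987 genes with an H3K27Ac promoter peak in either genotype.

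At the neighbouring genes the H3K4me3 ratios were lower than at Spen. The 5 nearest protein-coding genes on each side that do not overlap Spen all had H3K4me3 peaks within 10 kb, and their log2 ratios ran from -1.16 to 0.66, with a median of -0.33. None was called higher. Tmem82 (4.21 kb in WT, 1.71 kb in Spen KO) and Slc25a34 (4.85 and 1.89 kb), which share most of their windows, were called lower. Of all genes, 5.99% passed 2-fold lower and 0.805% passed 2-fold higher. The median over all 16771 genes with an H3K4me3 peak was -0.30, close to that of the neighbours. Fblim1, the nearest gene upstream and a gene for a filamin-binding LIM protein, had 13.9 kb in WT and 11.3 kb in Spen KO. Gm694, the nearest downstream, had 6.10 and 9.96 kb.

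In H3K27Ac the region around Spen had longer coverage in Spen KO on both sides. Of the 10 neighbours 5 had an H3K27Ac peak, and 2 were called higher, against 12.4% of all genes. These were Gm694 (0 kb in WT, 12.1 kb in Spen KO) and Hspb7, a small heat shock protein (0 and 2.96 kb). Their windows overlap, and the Hspb7 value is part of a peak that is also counted for Gm694. These peaks lay between 93.0 and 106 kb from the Spen start site, a stretch with no WT peak that takes in the start site of Zbtb17 and all of Gm694. Zbtb17, which encodes the Myc partner Miz-1 and overlaps the annotated end of Spen, had 8977 bp of H3K4me3 in WT against 15707 bp in Spen KO, and no H3K27Ac in WT against 9844 bp. Its window reaches into the longest exon of Spen, whose 2602-bp WT peak and most of whose 5687-bp KO peak are counted here again, and its H3K27Ac bases are also counted for Gm694. Over the 150 kb before the Spen start site H3K27Ac covered 22.6 kb in WT and 36.3 kb in Spen KO, whereas H3K4me3 covered 29.7 and 22.3 kb.

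The paralogs did not share the H3K4me3 pattern of Spen. Rbm15 (chr3:107128863-107136591) had 8.82 kb in WT and 7.66 kb in Spen KO, and Rbm15b (chr9:106783260-106789331) had 11.7 and 7.76 kb. Their log2 ratios were -0.19 and -0.56, at the 64.2nd and 22.6th percentiles of all genes, where Spen was at the 99.1st. Over the gene body alone the ratios were 0.14 and -0.22, at the 92.4th and 48.6th percentiles, where Spen was at the 99.5th. The peak over the Rbm15 start site was 5449 bp wide in WT but 4800 bp in Spen KO, and that over the Rbm15b start site was 4371 and 3081 bp. The bases covered in Spen KO alone came to 1.02 kb at Rbm15 and 0.055 kb at Rbm15b. The window of Rbm15b also takes in the start site of Manf, whose peak is 6452 bp wide in WT but 4013 bp in Spen KO.

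Both paralogs had acetylated promoters in either genotype. Rbm15 had 2.52 kb of H3K27Ac in WT and 2.25 kb in Spen KO, in 2 peaks at the same places. Rbm15b had 1.54 and 2.56 kb, and the longer coverage came from a 973-bp peak at Manf that only Spen KO had. Neither was called in either direction. Their promoter windows are shown beside that of Spen, with the same motifs in capitals, since the paralogs had an acetylated promoter in both genotypes where Spen had one in Spen KO alone. They lie at chr3:107136542-107136841 and chr9:106789282-106789581, both on the minus strand.
Rbm15: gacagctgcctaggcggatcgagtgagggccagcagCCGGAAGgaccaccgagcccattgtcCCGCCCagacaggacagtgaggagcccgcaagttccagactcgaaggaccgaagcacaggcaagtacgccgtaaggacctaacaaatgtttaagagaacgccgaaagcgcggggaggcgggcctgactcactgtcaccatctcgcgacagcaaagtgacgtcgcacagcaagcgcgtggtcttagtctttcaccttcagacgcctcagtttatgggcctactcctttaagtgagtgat
Rbm15b: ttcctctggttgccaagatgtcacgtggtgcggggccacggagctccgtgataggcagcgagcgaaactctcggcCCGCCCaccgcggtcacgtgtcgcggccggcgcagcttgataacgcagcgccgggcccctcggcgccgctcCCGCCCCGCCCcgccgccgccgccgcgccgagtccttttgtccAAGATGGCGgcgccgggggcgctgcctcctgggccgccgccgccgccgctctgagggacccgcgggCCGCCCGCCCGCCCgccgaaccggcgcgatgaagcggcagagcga
Rbm15b, like Spen, was rich in CpG (51, at the 99.2nd percentile) and held 6 GC boxes, some of which overlap, and 1 YY1 site, a motif found in 1.84% of windows. Rbm15 had 22 CpG, 1 GC box and 1 ETS site, the last found in 10.8% of windows. The RBPJ core was found at none of the members but Spen.

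Among the corepressor genes the 2 long ones, Ncor1 and Tbl1xr1, had more H3K4me3 coverage in Spen KO. Ncor1 (chr11:62129928-62272043, 142 kb long) had 5.42 kb in WT and 12.0 kb in Spen KO, a log2 ratio of 1.08. Tbl1xr1 (chr3:21975574-22115516, 139.9 kb long) had 6.06 and 12.2 kb, a ratio of 0.96. With flanks Ncor1 was thus the only 1 of the 7 members called higher, and over the gene body alone Spen, Ncor1 and Tbl1xr1 all were, with ratios of 1.37, 1.36 and 1.26. Of all genes, 0.805% of 16771 passed 2-fold higher with flanks and 0.974% of 15404 over the gene body, and 5.99% and 5.98% passed 2-fold lower. No member was called lower. Among genes of 50 kb or more, a group chosen after seeing the data, 0.725% passed 2-fold higher with flanks.

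At these long genes, as at Spen, part of the added coverage lay in separate peaks that only Spen KO had. No peak there was as wide as the 9011-bp peak of Spen. The Ncor1 promoter peak was 4233 bp wide in WT but 5199 bp in Spen KO, and an intronic peak of 704 bp in WT was 2283 bp. Spen KO had 4 further intronic Ncor1 peaks with no WT overlap, of 348 to 1603 bp between 4.30 and 17.2 kb. At Tbl1xr1 the 2803-bp promoter peak of WT was listed as 2 peaks of 898 and 1127 bp in Spen KO, and 6 peaks between 4.25 and 95.9 kb were found in Spen KO alone. All of these peaks without WT overlap were in the weaker part of the list, below the 24th percentile at both genes. With the stronger 50% of each list the log2 ratio was 0.27 at Ncor1 and -0.72 at Tbl1xr1, while at Spen it was 0.71. In order of the added length, Spen (15.3 kb) was 4th of 16771 genes, Ncor1 (6.59 kb) 37th and Tbl1xr1 (6.19 kb) 44th.

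**Figure D2:**
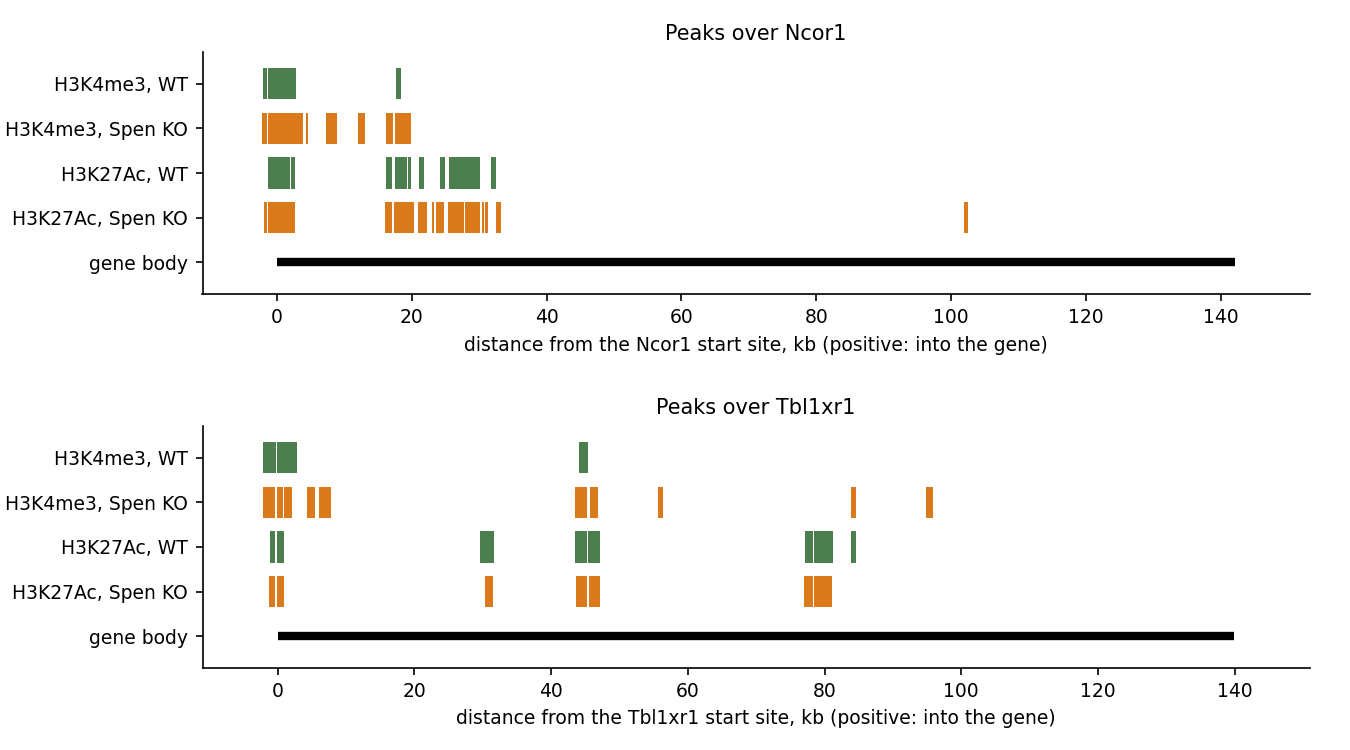
Peaks of H3K4me3 and H3K27Ac in WT (green) and Spen KO (orange) over Ncor1 and Tbl1xr1, by distance in kb from each start site. The H3K4me3 peaks found in Spen KO alone are short and spread out, up to 17.2 kb at Ncor1 and 95.9 kb at Tbl1xr1. Of the H3K27Ac bases of Spen KO, 70.9% at Ncor1 and 96.0% at Tbl1xr1 were also covered in WT.

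Hdac3 and Gps2, the short genes of the complex, had H3K4me3 ratios at the 71.6th and 36.0th percentiles of all genes. Hdac3 (chr18:38095498-38114642) had 7.64 kb in WT and 6.90 kb in Spen KO, and Gps2 (chr11:69727390-69730093) had 12.9 and 9.62 kb. The log2 ratios were -0.14 and -0.41. Over the gene body alone they were 0.016 and 0.0059, at the 85.8th and 84.5th percentiles. The peak over the Hdac3 start site was 3224 and 2987 bp, and that over the Gps2 start site 5412 and 4131 bp. The windows of both genes take in start sites of others (Diap1 and Rell2 at Hdac3, Eif5a at Gps2), so that part of these values belongs to those promoters.

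**Figure D3:**
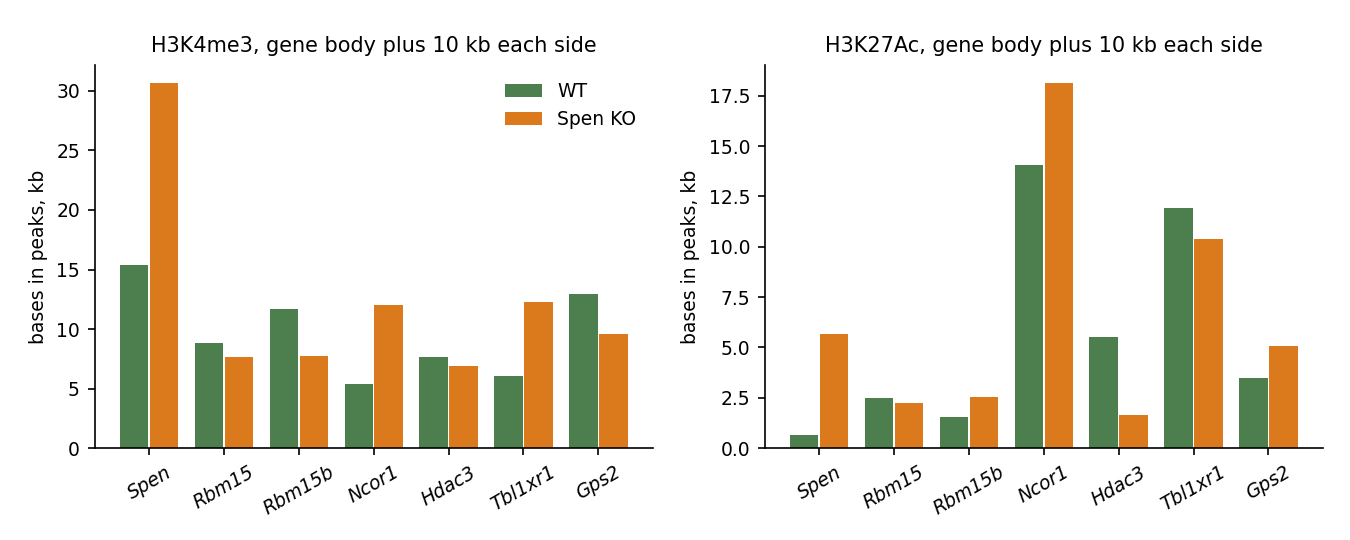
Length in kb covered by H3K4me3 peaks (left) and H3K27Ac peaks (right) over the gene body plus 10 kb on each side of the 7 genes, in WT (green) and Spen KO (orange); each bar is 1 list, with no replicate error. Spen, Ncor1 and Tbl1xr1 had more H3K4me3 in Spen KO, and the other 4 genes had less.

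In H3K27Ac 1 of the 7 members was called higher, Spen, and 1 lower, Hdac3, against the 12.4% and 21.7% of all genes given above. Hdac3 had 5.55 kb in WT and 1.63 kb in Spen KO, a log2 ratio of -1.51. Of the WT peaks 1 of 1398 bp lay in an intron from 4.53 to 5.93 kb and had no counterpart in Spen KO, and the others lay beyond the end of the gene, at and near the start of Diap1. Ncor1 carried 14.1 and 18.1 kb and Tbl1xr1 11.9 and 10.4 kb, the longest acetylated stretches of the group. At Ncor1 most of it lay in 2 blocks, at the start site and in introns from 16.0 to 33.3 kb. Of the Ncor1 bases covered in Spen KO, 70.9% were also covered in WT. At Tbl1xr1 the intronic peaks that began between 29.6 and 78.5 kb in WT were present in both genotypes, and 96.0% of the bases covered in Spen KO were also covered in WT.

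Gps2 had 3.51 kb of H3K27Ac in WT, all of it at Eif5a, and 5.05 kb in Spen KO. The difference lay at the Gps2 start site, where Spen KO had peaks of 1017 and 582 bp and WT had none. Both were at the 30.2nd percentile of the Spen KO list, where the acetylated peak of Spen stood at the 98.6th. Over the gene body alone Gps2 joined Spen among the genes called higher (2 of 7 members, against 11.9% of 6118 genes) and Hdac3 was lower (1 of 7, against 21.4%). The Gps2 window (chr11:69727140-69727439, plus strand) is shown as that of the partner with a promoter peak in Spen KO alone.
Gps2: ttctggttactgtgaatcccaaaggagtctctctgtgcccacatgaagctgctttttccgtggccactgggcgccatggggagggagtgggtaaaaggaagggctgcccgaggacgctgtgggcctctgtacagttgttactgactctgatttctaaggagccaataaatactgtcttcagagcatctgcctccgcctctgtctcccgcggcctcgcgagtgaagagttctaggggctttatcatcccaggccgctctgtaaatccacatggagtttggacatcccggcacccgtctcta
It held none of the 5 motifs and 12 CpG, at the 51.2nd percentile. A promoter peak of H3K27Ac in 1 genotype only was thus found both at a CpG-rich window, Spen, and at a window near the median, Gps2.

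**Figure D4:**
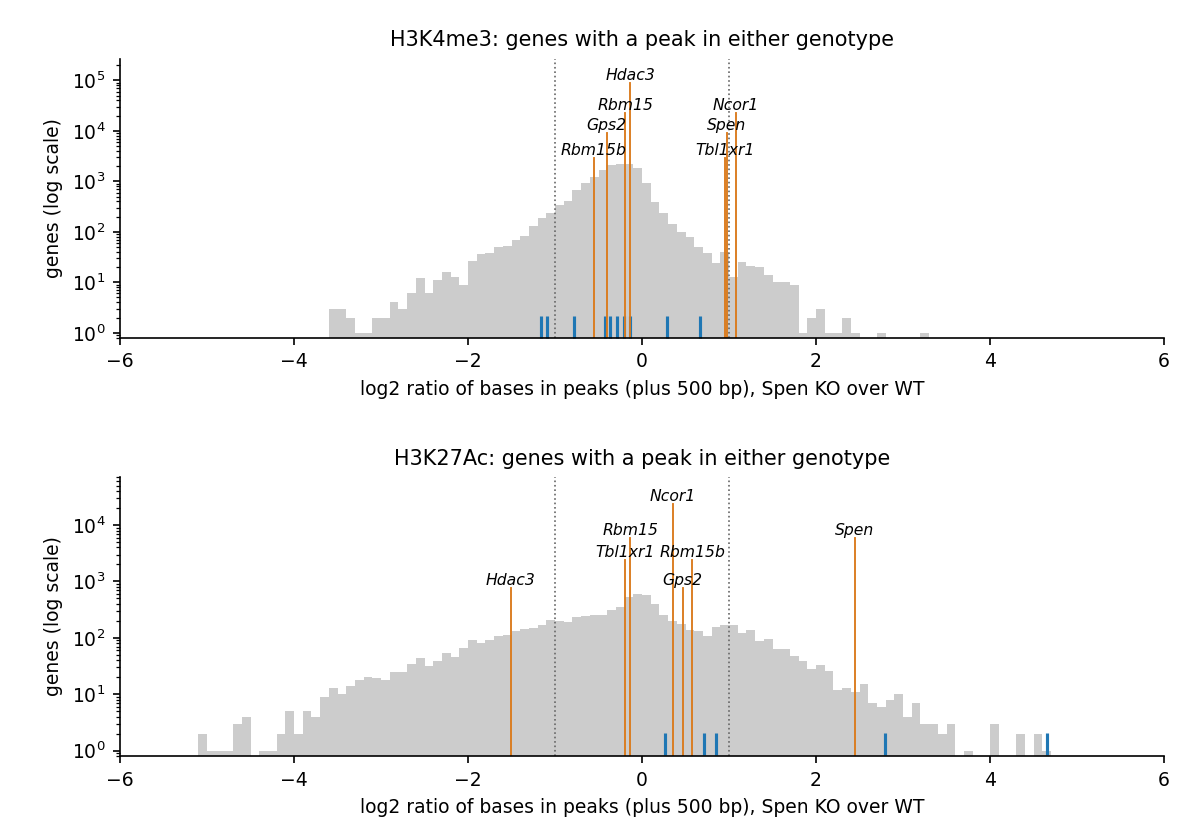
Number of genes (log axis) by log2 ratio of bases in peaks plus 500 bp, Spen KO over WT, for H3K4me3 (top) and H3K27Ac (bottom) in the gene body plus 10 kb; dotted lines mark 2-fold, orange lines the 7 genes and blue ticks the neighbours of Spen. Spen, Ncor1 and Tbl1xr1 sit together at 0.96 to 1.08 for H3K4me3, and Spen stands at 2.44 for H3K27Ac.

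The score of the peak at each start site gave a value for each library, because the combined lists keep 2 scores for each peak. The order of the 2 scores is not tied to replicate numbers, so they are called first and second. The study calls its libraries technical replicates, so a p-value here measures the spread between libraries only. Peaks that differed between the libraries of a genotype had been filtered out of the lists, so this spread is understated. For Spen the H3K4me3 score percentiles were 59.1 and 77.4 for the WT scores and 91.6 and 82.6 for the KO scores. Both KO values were above both WT values, with a mean difference of 18.8 percentile points, and the 2 WT values differed from each other by nearly as much. In limma on normal scores of the ranks over 13584 promoters the difference was 0.67 (SE 0.43) with a Benjamini-Hochberg adjusted p of 0.673. It did not pass the threshold of 0.05, and no promoter of the 13584 did, while 8.80% had an unadjusted p below 0.05. Both KO values lay above both WT values at 14.0% of promoters (1896), and both lay below at 3674 promoters.

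At the other 6 start sites the H3K4me3 values of the genotypes overlapped. Rbm15b was high in all 4, with WT percentiles of 98.2 and 97.0 and KO percentiles of 95.7 and 97.5. Tbl1xr1 had WT values of 97.2 and 62.2, on either side of its KO values of 90.9 and 91.1. Hdac3 had WT values of 88.7 and 78.3 and KO values of 79.8 and 63.3, the widest mean difference downward in percentile points, of -11.9. On the normal scores that limma tested its difference was -0.41 (adjusted p 0.806), and that of Rbm15 was wider, at -0.54. The remaining adjusted p values ran from 0.758 for Rbm15 to 0.964 for Ncor1. With Spen, 1 of 7 members had scores that separated with Spen KO higher, a share close to the 14.0% over all promoters.

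For H3K27Ac 4 of the 7 genes had a promoter peak in both genotypes. Rbm15 scored at the 85.5th and 85.9th percentiles for WT and at the 91.8th and 93.2nd for Spen KO, with both KO values above both WT values, as at 19.4% of 3456 promoters. Ncor1 had WT values of 95.1 and 94.8 and KO values of 86.7 and 92.6, with both KO values below, as at 22.3% of promoters. Rbm15b had WT values of 70.4 and 5.95 and KO values of 68.6 and 77.5, so its mean difference of 34.9 points rested on a single low WT score. Tbl1xr1 was between 97.5 and 99.4 in all 4. None passed the limma test, the lowest adjusted p being 0.489 for Rbm15b. Over all promoters 3 passed as higher and 7 as lower, which is 0.0868% and 0.203%.

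**Figure D5:**
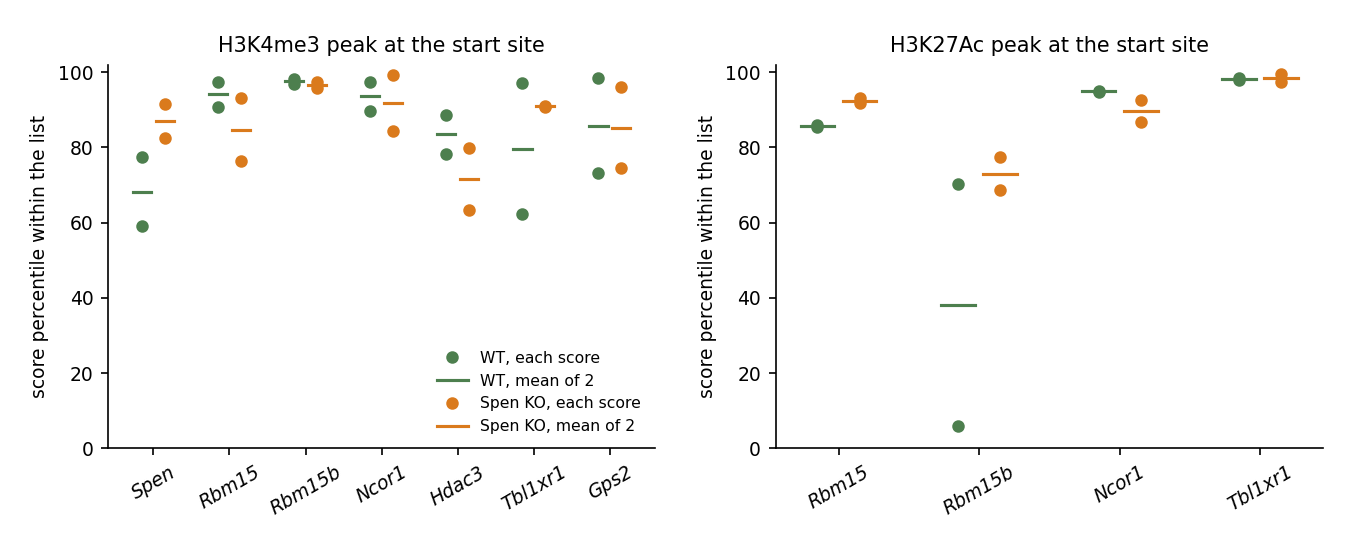
Percentile, within its list, of the score of the strongest peak within 1000 bp of the start site, for H3K4me3 (left) and for the 4 genes with an H3K27Ac peak in both genotypes (right); points are the 2 scores of a list and lines their mean. Spen is the only gene on the left whose Spen KO points (91.6 and 82.6) both lie above its WT points (59.1 and 77.4).

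No H3K9me3 domain lay within 10 kb of any of the 7 genes in either genotype, nor of any of the 10 neighbours. The lists held 53745 domains over 394 Mb in WT and 70268 over 371 Mb in Spen KO, and 11450 genes had a domain in their window in at least 1 genotype. The H3K4me3 difference at Spen therefore had no counterpart in this mark.

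Oct4 peaks were few. The 7 windows held 3 and 5 peaks in the WT libraries and 3 and 3 in the Spen KO libraries, a mean difference of -1 that became -2 without WT replicate 1. Spen had 1 peak, of 139 bp and 6.97-fold enrichment, in WT replicate 2, and none in the other 3 libraries. It lay in an intron 1.61 kb after the start site and is shown because it was the only Oct4 peak at the gene (chr4:141092768-141092906, minus strand).
Spen Oct4 peak: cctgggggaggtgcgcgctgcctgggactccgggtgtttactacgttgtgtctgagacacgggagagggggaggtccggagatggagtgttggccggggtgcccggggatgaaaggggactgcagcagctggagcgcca
It contained no octamer and none of the other motifs. In the 4 libraries 3.27% to 7.39% of the peaks contained an octamer, and none of the 14 peaks at the members did.

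Oct4 peaks in several libraries at 1 place were found at Tbl1xr1 and Hdac3. At Tbl1xr1 peaks within 1 kb of the start site were present in WT replicate 2 (353 and 449 bp), Spen KO replicate 1 (158 and 120 bp) and Spen KO replicate 2 (688 bp), and absent in WT replicate 1. A peak between 79.7 and 80.1 kb, inside an H3K27Ac peak of both genotypes, was found in WT replicate 2 (5.63-fold) and Spen KO replicate 2 (7.73-fold). Beyond the end of Hdac3 a peak between 21.9 and 22.3 kb was found in the same pair of libraries. Rbm15 and Rbm15b had 1 peak each, both in WT replicate 1 alone, and Ncor1 and Gps2 had none.

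Other genes of the same pathways had few calls. Of 13 further corepressor genes all had H3K4me3 peaks and none was called, with a median log2 ratio of -0.09. Rbpj, the DNA-binding partner of Spen in Notch target repression, had 20.3 kb of H3K4me3 in WT and 37.0 kb in Spen KO, a log2 ratio of 0.85. Its added length of 16.7 kb was the 3rd of 16771 genes, above that of Spen. Ctbp2, a corepressor related to Ctbp1, had 53.5 and 61.5 kb, an added length 20th in order but a log2 ratio of 0.20. Its H3K27Ac went the other way, with 34.5 kb in WT and 17.2 kb in Spen KO, a log2 ratio of -0.98 just short of a call. For H3K27Ac 12 had a peak. Ctbp1, a dehydrogenase-like corepressor, was called higher (0 and 0.883 kb), and Hdac4 (4.41 and 0 kb), a class II deacetylase, was called lower. Of all genes with an H3K27Ac peak, 12.4% were called higher and 21.7% lower. Rbpj was called higher in H3K9me3 (0.383 and 1.58 kb), as were 11.8% of 11450 genes. The m6A writer list (6 genes, median -0.34) and the list of Xist-bound silencing factors (7 genes, median -0.16) had no call in H3K4me3 or H3K27Ac, and no call in H3K9me3.

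By the covered bases in all 10 lists, the 5 genes most like Spen out of 22239 were Zbtb7b, Pygm, Usp10, Wdr45 and Plxnb2, at Euclidean distances of 1.23 to 1.58 on the log2 scale. They were ordered over 10 lists that share a build and a peak caller, and the distance is a description only. The order used the same WT and Spen KO coverage as the values below, so likeness to Spen in them is built into the choice. Usp10 also had longer H3K4me3 coverage in Spen KO, 12.8 kb in WT and 24.9 kb in Spen KO. Zbtb7b (14.7 and 14.2 kb) and Pygm (13.7 and 13.1 kb) did not, but their H3K27Ac was longer in Spen KO (0.627 and 7.38 kb, and 0.871 and 5.36 kb). The members were farther away, from Rbm15b in place 143 and Gps2 in place 164 to Ncor1 in place 4380 and Tbl1xr1 in place 4669.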

How the data were processed

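ChIP-seq of H3K4me3, H3K27Ac, H3K9me3 and Oct4 was analysed from 10 deposited peak lists of HATX mouse embryonic stem cells. By the study's methods and the submitters' processing notes, the authors aligned read pairs with Bowtie2 against mm9, dropped duplicates through Picard, and ran MACS2 against input, with a q-value limit of 0.01 (versions are not given in the sources used here). The deposited H3K4me3 and H3K27Ac lists hold peaks that passed an irreproducible discovery rate of 0.05 across both libraries of 1 genotype, and each such peak has a score per library. Which MACS2 column this score is, and which library comes first, is not given in the sources used here. The deposited H3K9me3 score of a domain was not used beyond ordering domains, and whether libraries were pooled there is not given either. The deposited Oct4 lists give a fold enrichment, the ratio of ChIP over input, for each library. A list of weaker libraries is shorter, so covered length depends on depth and on the limits of peak calling.

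Genes were those of GENCODE vM1. The length covered by peaks was summed over each gene body plus 10 kb, and the log2 ratio of Spen KO over WT was taken after adding 500 bp. A ratio of 2-fold was called, over genes with a peak in either genotype. With 1 list per genotype these ratios were not tested. The strongest peak within 1000 bp of a start site was compared by limma (version 3.58.1, R 4.3.3) on normal scores of its rank in each list, with Benjamini-Hochberg adjustment over all promoters. The limma code was tested on simulated data and the coverage code against a count base by base. With 2 libraries per genotype an exact permutation test cannot go below p = 0.333 and was not used. Promoter windows and Oct4 peaks were read from the mm9 genome in Python 3.11.15. Motif positions were counted from 0 at the start site. Named genes were the members, the 10 neighbours of Spen, pathway genes past 2-fold, and the 5 genes nearest to Spen over the lists; Zbtb17 and Ctbp2 were added after their values were seen. The members, lists and windows were chosen with earlier results of these data known. 1 gene of the corepressor list is not reported here. Input libraries were not analysed here. No other column of per-sample values was left aside.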

Additional observations from a re-analysis of the deposited data

How the results depend on the processing

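The log2 ratio of Spen stayed above 0 in every alternative tried, from 0.71 to 1.79 for H3K4me3 and from 2.03 to 2.99 for H3K27Ac, and was highest for H3K4me3 (1.79) over the first 25 kb of genes of 25 kb or more, a stretch chosen after seeing the data. Spen (0.98) and Tbl1xr1 (0.96) lay close to the 2-fold limit in H3K4me3. The number of members called higher, 1 as reported, was 3 over the gene body alone, 2 with a flank of 2 kb, with lists of equal length, with peaks within 1000 bp joined, with a constant of 100 bp and over the first 25 kb, and 0 with the stronger 50% of each list, where Ncor1 fell to 0.27 and 2.62% of all genes passed higher. For H3K27Ac the members called higher, 1 as reported, were 2 over the gene body alone, with a flank of 2 kb and with the stronger 50% of each list, and those called lower, 1 as reported, were 0 over the first 25 kb, where Hdac3 is too short to be included. Of the neighbours of Spen, those called lower in H3K4me3, 2 as reported, were 0 over the gene body alone (with 1 called higher), with a flank of 2 kb and with lists of equal length, and 1 with a constant of 1000 bp. Those called higher in H3K27Ac, 2 as reported, were 1 over the gene body alone and with a flank of 2 kb. They were 3 with peaks within 1000 bp joined and with a constant of 100 bp. In the pathway lists H3K4me3 had 1 gene lower with a constant of 100 bp and 1 higher with the stronger 50% of each list. H3K27Ac, with 1 higher and 1 lower as reported, had 3 and 3 with a constant of 100 bp, 2 higher with lists of equal length, 0 higher with a constant of 1000 bp, 2 lower over the gene body alone and 5 lower with the stronger 50% of each list. H3K9me3, with 1 higher, had 0 higher and 3 lower with lists of equal length, 0 higher with a constant of 1000 bp and 1 lower with the stronger 50% of each list. The cause of these shifts was not tested.

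In limma with start sites within 2500 bp, H3K4me3 had 1 promoter called higher and 2 lower, and H3K27Ac had 0 lower. With the stronger 50% of both lists H3K27Ac had 1 higher and 1 lower. Leaving out 1 score at a time, in which the lone score of a genotype is assumed to vary like the pair of the other, gave 0 to 1 higher and 0 to 2 lower for H3K4me3 and 0 to 5 higher and 0 to 22 lower for H3K27Ac. Without the first or without the second WT score H3K27Ac had no call, without the first Spen KO score it had 5 higher and 11 lower, and without the second 22 lower. The H3K4me3 rank differences of Gps2, Ncor1 and Tbl1xr1, small as reported, changed sign. Leaving out 1 score gave -0.93 to 0.58 for Gps2, -0.59 to 0.79 for Ncor1 and -0.57 to 1.03 for Tbl1xr1. The turns were Gps2 to 0.00065 with quantile normalization of the log2 score, to 0.58 without the second WT score and to 0.37 without the second Spen KO score, Ncor1 to -0.24 without the first WT score and to -0.59 without the second Spen KO score, and Tbl1xr1 to -0.57 without the second WT score. In H3K27Ac that of Tbl1xr1 ran from -0.15, without the second Spen KO score, to 0.42. The Oct4 difference of -1 ran from -2 to 0 when a library was left out, -2 without WT replicate 1 and 0 without WT replicate 2. No paired analysis was possible because the 2 scores of a peak carry no replicate numbers, and the histone lists combine their libraries, so coverage could not be recomputed without one.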
